A study of Homo sapiens with 12 samples.

Results

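Aminoacyl-tRNA synthetases load each transfer RNA with its amino acid, and 36 of their genes, with 3 genes for the scaffold proteins that hold several of them together, were followed in A375 melanoma cells. The members were the genes of the table named by 1 capital letter and ARS, with or without a closing digit, plus FARSA, FARSB, EPRS, AIMP1, AIMP2 and EEF1E1. This gave 40 of 20263 genes. The 39 described here are 20 cytosolic synthetases, 16 mitochondrial synthetases (a closing 2 in the symbol) and 3 scaffold genes, and counts of members are over these. All 39 passed the filter on low counts. A375 is an established human melanoma line, labelled wild type and as skin tumour, and RNA-seq was done on 4 groups of 3 libraries. The group labelled Ctrl was the control. The group labelled DBIC received the compound that the study calls DdBIC (dodecyl 1H-benzo[d]imidazole-5-carboxylate, a ligand of the nuclear receptor Nur77). The group Hemin received hemin, a soluble form of heme, and the group DBIC+Hemin received both. Dose and duration for these libraries are not given in the sources used here. The labels do not say that the 3 libraries of a group came from separate cultures, so that the p-values measure only the spread between these libraries, which may be technical.

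Each cell needs a set of synthetases in the cytosol and another in the mitochondria, because both compartments make proteins. Most amino acids have a separate nuclear gene for each compartment, whereas GARS and KARS each supply the enzyme of both. Several cytosolic enzymes sit in the multi-tRNA synthetase complex, built on the scaffold proteins AIMP1, AIMP2 and EEF1E1. A shortage of amino acids or heme, or stress in the endoplasmic reticulum or the mitochondria, can trigger the integrated stress response, in which translation in general slows while the transcription factor ATF4 is made. Many cytosolic synthetase genes are known ATF4 targets, bound through the C/EBP-ATF response element in their promoters.

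The promoters of the members were read for this element, to show which of the genes in the comparisons below hold its letters. The letters searched were TGATGNAA on either strand, no other motif was searched, and the windows were the RefSeq promoters of GRCh38.p14, which run from 250 bases before to 50 after each start. Windows were found for 33 of the 39 members, and AARS2, DARS, LARS, VARS, VARS2 and YARS had no entry. The motif stood in a window of 7 of 16 cytosolic genes, 1 of 14 mitochondrial genes and 0 of 3 scaffold genes, against 1217 of all 27305 genes (4.46%) and 3.62% of 35116 windows. A match is a description of the letters and not a binding site. The stretches lie at chr16:70289656-70289723 on the minus strand for AARS, chr11:3057394-3057455 minus for CARS, chr7:30594815-30594882 plus for GARS, chr9:92293673-92293740 minus for IARS, chr12:57488034-57488097 plus for MARS, chr18:57621807-57621852 minus for NARS, chr5:33440937-33440994 plus for TARS and chr12:32756057-32756124 minus for YARS2. Each is written on the strand of its gene with the motif in capitals, where TTGCATCA and TTTCATCA are the motif read on the opposite strand:
AARS: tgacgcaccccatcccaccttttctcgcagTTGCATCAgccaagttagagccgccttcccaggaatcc
CARS: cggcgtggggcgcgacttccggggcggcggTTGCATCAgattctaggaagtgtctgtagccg
GARS: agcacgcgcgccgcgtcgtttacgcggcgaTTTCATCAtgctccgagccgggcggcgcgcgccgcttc
IARS: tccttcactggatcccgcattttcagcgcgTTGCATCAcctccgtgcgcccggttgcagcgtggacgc
MARS: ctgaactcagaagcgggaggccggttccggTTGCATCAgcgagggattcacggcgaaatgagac
NARS: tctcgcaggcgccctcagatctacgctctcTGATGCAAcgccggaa
TARS: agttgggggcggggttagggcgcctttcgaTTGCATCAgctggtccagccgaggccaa
YARS2: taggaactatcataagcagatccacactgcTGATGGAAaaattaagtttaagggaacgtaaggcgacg

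In CARS, GARS, IARS, MARS, NARS and TARS the motif lay close to a RefSeq start, from 33 bases before it in GARS to 15 bases after it in NARS. CARS, GARS and TARS each have 2 starts in the table, of which the window of only 1 holds the motif, and the distance is to that start. In AARS and YARS2 it lay farther upstream, 187 and 197 bases before the start. The same 8 letters, TTGCATCA, stood in AARS, CARS, IARS, MARS and TARS, and NARS held them on the other strand.

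Total counts were 37951275 to 44358912 per library. The heme-inducible gene HMOX1 was at 7.99 to 9.19 CPM (counts relative to the total of the library, scaled by TMM) in Ctrl and 7.26 to 8.73 in DBIC, against 61.9 to 65.5 in Hemin and 146 to 188 in DBIC+Hemin. DDIT3, a stress-response gene downstream of ATF4, was at 85.8 to 164 CPM in DBIC and at 9.37 to 28.0 in the other 9 libraries. Of the melanocyte markers, SOX10 was at 548 to 770 CPM and MITF at 8.31 to 21.5, whereas the pigmentation genes TYR, PMEL, MLANA, DCT and TYRP1 did not exceed 1.11 in any library. PTPRC, the pan-leukocyte marker, and KRT1 had 0 counts in all 12 libraries, while CD68 at 20.2 to 29.7 CPM and PDGFRB at 12.3 to 16.3 were detected. The keratinocyte marker KRT14 was also detected, at 2.62 to 3.92 CPM, as was the fibroblast marker COL1A1, at 1.44 to 3.02. KRT5, COL1A2 and CD3E did not exceed 0.16 CPM.

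In Ctrl cells the cytosolic synthetase genes were higher than their mitochondrial partners in every pair compared. Levels of different genes are compared in TPM, which is scaled by transcript length. The cytosolic genes ran from 45.7 TPM for FARSB to 346 for FARSA (means of the 3 Ctrl libraries), with a median of 215. The mitochondrial genes ran from 11.1 TPM for PARS2 to 116 for IARS2, with a median of 33.6. FARSA and FARSB encode the subunits of a single enzyme for phenylalanine, and yet their TPM lay at the opposite ends of the cytosolic class. After FARSA came GARS (336 ± 2.17, SD, n = 3) and KARS (336 ± 2.77), the genes that serve both compartments. The ranges of these 3 genes overlapped with their neighbour in the order, so that their order is not resolved.

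Among the 17 pairs of a cytosolic and a mitochondrial gene for the same amino acid (16 amino acids), the cytosolic gene was higher in every Ctrl library in all 17. The ratio was least at 1.40 for CARS over CARS2 and 1.46 for IARS over IARS2, and the next in order was 3.21, for EPRS over EARS2. The median was 4.90 and the highest was 25.1 ± 4.99, for FARSA over FARS2.

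**Figure D1:**
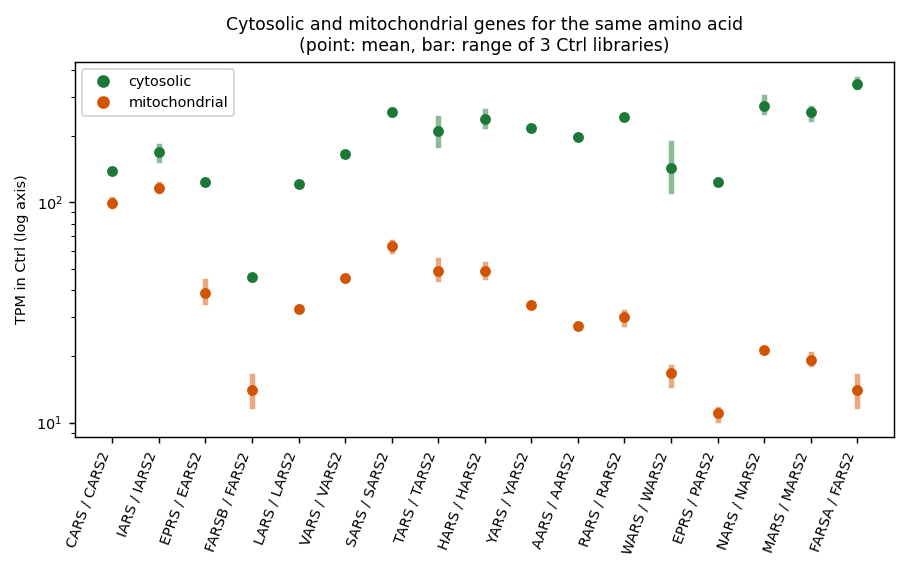
TPM (log axis) of each cytosolic gene (green) and its mitochondrial partner (orange) in Ctrl, where points are means of 3 libraries and bars span the lowest to the highest library. Pairs are ordered by ratio, from 1.40 for CARS and CARS2 on the left to 25.1 for FARSA and FARS2 on the right, and the green point lies above the orange one in all 17.

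The length that the authors divided by is not constant for every gene. The ratio of count to TPM, scaled to each library, differed between libraries by up to 1.36 times for TARS, 1.32 for SARS2, 1.27 for NARS and 1.25 for WARS. It differed by 1.01 times for GARS, AARS, SARS and IARS2. The comparisons between groups therefore used counts.

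Hemin against Ctrl asked what hemin does without the compound. Of 20 cytosolic genes, 7 rose (adjusted p under 0.05, edgeR's quasi-likelihood test) and 0 fell (0 also at an unadjusted p under 0.05 and by DESeq2), where 1.47% of all 14287 tested genes rose and 2.59% fell. Among the 3228 tested genes within the range of the cytosolic members' mean level (67.3 to 457 CPM), 2.63% rose. The 7 were GARS, SARS, AARS, YARS, TARS, EPRS and NARS, the enzymes for glycine, serine, alanine, tyrosine, threonine, glutamate with proline, and asparagine.

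GARS (chr7:30594681-30634033 on GRCh38, plus strand) was at 405, 410 and 408 CPM in the Ctrl libraries and at 471, 485 and 467 in the Hemin libraries. The groups did not overlap and the difference was 0.22 ± 0.02 on the log2 scale (SE; 1.16-fold; adjusted p = 0.000424, edgeR). SARS (chr1:109213918-109238148, plus strand), for serine, was at 224, 227 and 233 CPM in Ctrl and 261, 263 and 262 in Hemin. Its Hemin libraries lay close together and all above Ctrl, with a log2 fold change of 0.20 ± 0.02 (adjusted p = 0.000972, edgeR). AARS (chr16:70252295-70289543, minus strand) was at 326, 333 and 330 CPM in Ctrl and 374, 377 and 371 in Hemin. This was a rise of 0.18 ± 0.02 (adjusted p = 0.00200, edgeR) with no overlap.

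YARS, the tyrosyl enzyme, was at 334, 343 and 341 CPM in Ctrl and 380, 385 and 382 in Hemin. All Hemin libraries exceeded all Ctrl libraries, and the log2 fold change was 0.17 ± 0.02 (adjusted p = 0.000806, edgeR). TARS, for threonine, was at 317, 304 and 311 CPM in Ctrl against 361, 353 and 336 in Hemin, a log2 fold change of 0.17 ± 0.03 (adjusted p = 0.00737, edgeR). These 5 calls held under all 19 other settings. EPRS, which joins the glutamyl and prolyl enzymes in a single chain, had 303, 293 and 294 CPM in Ctrl and 329, 332 and 318 in Hemin (log2 fold change 0.14 ± 0.03, adjusted p = 0.0409, edgeR). NARS, for asparagine, had 275, 269 and 279 CPM in Ctrl and 296, 302 and 295 in Hemin (log2 fold change 0.12 ± 0.03, adjusted p = 0.0374, edgeR).

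The groups did not overlap for EPRS or NARS either, but their adjusted p lay near the threshold. Under edgeR the EPRS call was lost without any 1 of the Ctrl or Hemin libraries, without DBIC library 1 or 2 and without DBIC+Hemin library 2 (adjusted p 0.0514 to 0.148). The NARS call was lost without any 1 of the Ctrl or Hemin libraries and without DBIC library 1 or 3 (adjusted p 0.0503 to 0.143, edgeR), so that 5 of the 7 calls did not rest on a particular library. With the replicate number as a block, EPRS (adjusted p = 0.0688, edgeR) and NARS (adjusted p = 0.0667, edgeR) were lost as well, and EPRS also with library totals only (adjusted p = 0.0527, edgeR).

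**Figure D2:**
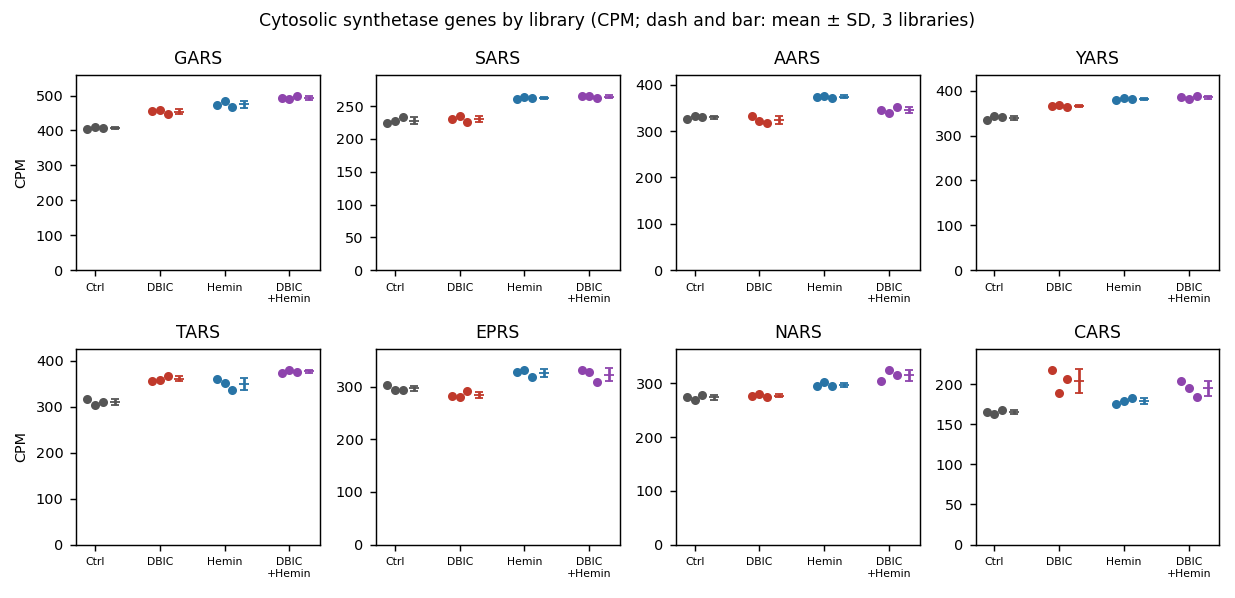
CPM of 8 cytosolic genes in each library (points) with the mean and SD of the group beside them, for Ctrl, DBIC, Hemin and DBIC+Hemin, on axes that start at 0. Hemin libraries lie above Ctrl libraries in all 8 panels, by 1.16-fold for GARS, and CARS has its highest mean in DBIC.

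The other 13 cytosolic genes did not pass the test, although 12 of them had a positive difference. In all, 19 of 20 cytosolic genes had a positive log2 fold change, the exception being MARS at -0.0019, and the median was 0.11 against 0.00 for all tested genes. In 13 of 20 the Hemin libraries all lay above the Ctrl libraries, where this held for 12.1% of tested genes. The difference of WARS, for tryptophan, was the largest at 0.44 ± 0.18 (adjusted p = 0.275, edgeR), but its Ctrl libraries alone ranged over 163, 215 and 140 CPM against 241, 243 and 217 in Hemin. IARS, for isoleucine, stood at 370, 320 and 362 CPM in Ctrl and 408, 398 and 387 in Hemin, which is 0.18 ± 0.06 (adjusted p = 0.172, edgeR). KARS, the other gene that serves both compartments, was at 313, 314 and 317 CPM in Ctrl and 320, 324 and 316 in Hemin. These overlapped, with a log2 difference of 0.03 ± 0.02 and a 95% interval of -0.03 to 0.08.

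All 7 genes that rose belong to the 13 cytosolic synthetases listed as known ATF4-linked genes (AARS, CARS, EPRS, GARS, IARS, LARS, MARS, NARS, SARS, TARS, VARS, WARS and YARS), whose median was 0.17. Of the other 7 (DARS, FARSA, FARSB, HARS, KARS, QARS and RARS) 0 passed the test (edgeR; 1 at an unadjusted p under 0.05 and 0 by DESeq2), with a median of 0.03. Among the 6 risen genes with a promoter entry, 4 (AARS, GARS, NARS and TARS) held the motif shown above, and EPRS and SARS did not. Of the 10 cytosolic genes with an entry that did not pass, 3 held it (CARS, IARS and MARS). When hemin was added to DBIC, the motif stood in 3 of 7 risen genes with an entry and in 4 of 9 that did not pass, and for DBIC against Ctrl in 3 of 3 that rose, 0 of 2 that fell and 4 of 11 that did not pass. By catalytic class, 2 of 10 class I and 5 of 10 class II genes rose with hemin. EPRS is counted in class I although its prolyl part is a class II enzyme, and FARSA and FARSB are counted as separate genes. Beside these counts with hemin, 1.47% of all tested genes rose, and 2.63% within the level range of the cytosolic members. The difference between these subsets was not tested. The ATF4-linked list was drawn from general knowledge, with earlier results of these data known, so that counts on it are a description.

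Of the 16 mitochondrial genes, 0 passed the test with hemin (edgeR; 1 was higher and 0 lower at an unadjusted p under 0.05, and 0 passed with DESeq2), and their median was 0.04. Within the level range of these genes 1.65% of tested genes rose and 3.74% fell, so that a count of 0 in 16 is near the background, and the difference from the cytosolic genes was not tested. Log2 fold changes ran from -0.15 for LARS2 to 0.16 for MARS2. The LARS2 value came with a low value in Hemin library 3, with 71.8, 70.7 and 45.8 CPM against 66.0, 69.95 and 72.6 in Ctrl. MARS2, the mitochondrial methionyl enzyme, was at 29.5, 27.1 and 27.1 CPM in Ctrl and 30.8, 31.7 and 31.0 in Hemin (adjusted p = 0.152, edgeR). Of the partners of the genes that rose, AARS2 (-0.06), SARS2 (-0.11), TARS2 (-0.02), NARS2 (0.11), YARS2 (0.05), EARS2 (0.10) and PARS2 (-0.02) did not pass. The 3 scaffold genes did not pass either, at 0.00 for AIMP1, 0.06 for AIMP2 and 0.04 for EEF1E1.

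As a mean over the class in each library (log2 CPM minus the Ctrl mean), the cytosolic genes lay at -0.02 to 0.02 in Ctrl, -0.0042 to 0.02 in DBIC, 0.11 to 0.13 in Hemin and 0.12 to 0.13 in DBIC+Hemin. All 6 libraries with hemin thus lay above all 6 without it. The same mean over all tested genes was 0.06 to 0.07 in DBIC and -0.0070 to 0.0098 in the other 9 libraries. The cytosolic means in DBIC lay below this mean of all genes, but the medians did not differ in that way. For DBIC against Ctrl the median log2 fold change was -0.0082 over all tested genes and -0.00060 over the cytosolic genes. The mitochondrial mean was -0.04 to 0.03 in Ctrl, -0.06 to -0.02 in DBIC, -0.02 to 0.06 in Hemin and -0.04 to 0.01 in DBIC+Hemin. Here DBIC, Hemin and DBIC+Hemin each overlapped Ctrl. As a share of all counts, in which genes of high level weigh more, the mitochondrial genes took 0.0829% to 0.0867% in Ctrl and 0.0755% to 0.0791% in DBIC, without overlap, and 0.0817% to 0.0862% in Hemin and 0.0797% to 0.0833% in DBIC+Hemin. The cytosolic genes took 0.518% to 0.526% of all counts in Ctrl and 0.566% to 0.575% in Hemin. Such shares are relative, so that a small change in every cell and a larger one in some cells cannot be told apart, nor can fewer cells and less RNA per cell.

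**Figure D3:**
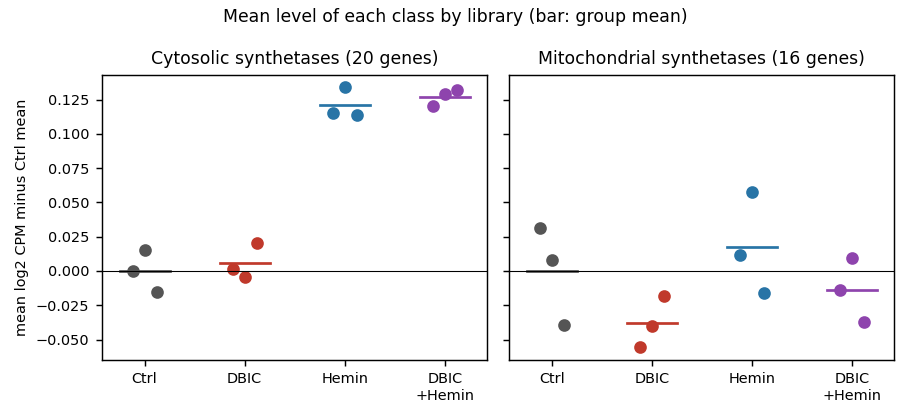
Mean over the 20 cytosolic (left) and 16 mitochondrial (right) genes of log2 CPM minus the Ctrl mean, where each point is a library and each bar the mean of 3. Cytosolic means are 0.11 to 0.13 in both groups with hemin and within 0.02 of 0 in Ctrl and DBIC, while mitochondrial means are -0.06 to -0.02 in DBIC and overlap Ctrl in all 3 treated groups.

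DBIC against Ctrl asked what the compound does without hemin. Of the 20 cytosolic genes, 4 rose (CARS, TARS, GARS and YARS) and 3 fell (VARS, KARS and FARSB), where 20% of all tested genes rose and 17.2% fell, so that both counts are near the background. Within their level range 23.9% of genes rose. Their median was 0.00, and no direction of the class is given because it was -0.06 after upper-quartile scaling. Under that scaling 3 of the 20 rose and 7 fell. All 4 genes that rose are on the ATF4-linked list, and so is VARS, which fell.

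CARS (chr11:3000922-3057613, minus strand), the cysteinyl enzyme, had the largest rise among the cytosolic genes. It was at 166, 163 and 167 CPM in Ctrl and 218, 188 and 207 in DBIC, so that every DBIC library exceeded every Ctrl library. The log2 fold change was 0.31 ± 0.05 (1.24-fold; adjusted p = 0.000699, edgeR). TARS was at 357, 360 and 368 CPM with DBIC, 0.22 ± 0.03 above Ctrl (adjusted p = 0.000138, edgeR).

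GARS was at 455, 459 and 446 CPM with DBIC, a rise of 0.15 ± 0.02 (adjusted p = 0.000247, edgeR). YARS was at 366, 368 and 364 CPM, a rise of 0.11 ± 0.02 (adjusted p = 0.00130, edgeR). The YARS difference was 0.05 after upper-quartile scaling (adjusted p = 0.0959, edgeR), which was the only other setting that ended its call.

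VARS (chr6:31777518-31795953, minus strand), for valine, was at 329, 330 and 320 CPM in Ctrl and at 295, 293 and 287 in DBIC. All DBIC libraries were lower, by -0.16 ± 0.02 (adjusted p = 0.000201, edgeR). KARS (chr16:75627474-75647679, minus strand), for lysine, was at 284, 293 and 283 CPM in DBIC, against 313 to 317 in Ctrl. Its log2 fold change was -0.13 ± 0.02 (adjusted p = 0.000996, edgeR). FARSB was at 73.3, 73.1 and 75.2 CPM in Ctrl and 66.0, 69.7 and 68.2 in DBIC (-0.12 ± 0.04, adjusted p = 0.0498, edgeR). The FARSB call lay at the threshold and was lost without any 1 of the Ctrl or DBIC libraries, without Hemin library 1 or 2 and without DBIC+Hemin library 3 (adjusted p 0.0501 to 0.149, edgeR), with no filter (0.0559) and with the replicate block (0.0552).

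AARS and SARS, which rose with hemin, did not pass with DBIC. AARS was at 333, 321 and 318 CPM (log2 fold change -0.03 ± 0.02, adjusted p = 0.449, edgeR), overlapping Ctrl. SARS was at 230, 236 and 225 CPM (0.02 ± 0.02), also overlapping. The Hemin and DBIC comparisons share their Ctrl libraries.

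Among the 16 mitochondrial genes, MARS2 and YARS2 rose with DBIC, IARS2 and AARS2 fell, and the median was -0.07. Within their level range 24.6% of tested genes rose and 19.7% fell, so that 2 of 16 in each direction is not above the background. After upper-quartile scaling 1 of the 16 rose and 4 fell, with a median of -0.13. Leaving out 1 library gave 1 to 2 higher, 1 to 4 lower and a median of -0.093 to -0.046. IARS2 (chr1:220094102-220148041, plus strand), for isoleucine, was at 206, 193 and 195 CPM in Ctrl and 157, 154 and 165 in DBIC. The groups did not overlap, and the log2 fold change was -0.32 ± 0.06 (0.803-fold; adjusted p = 0.00107, edgeR).

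Its cytosolic partner IARS did not pass the test. IARS was at 328, 361 and 365 CPM in DBIC (log2 fold change 0.00 ± 0.06), overlapping Ctrl. AARS2 was at 49.6, 51.6 and 51.4 CPM in Ctrl and 45.9, 46.2 and 45.9 in DBIC, a fall of -0.14 ± 0.04 (adjusted p = 0.0209, edgeR). The AARS2 call was lost without Ctrl library 2 or 3 or DBIC library 1 (adjusted p 0.0514 to 0.0635, edgeR).

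MARS2 (chr2:197705369-197708387, plus strand) went the other way. Its DBIC libraries were at 33.5, 34.1 and 37.0 CPM, all above the 27.1 to 29.5 of Ctrl, with a log2 fold change of 0.32 ± 0.05 (adjusted p = 0.000815, edgeR). The cytosolic gene MARS was at 316, 298 and 302 CPM in DBIC and 329, 336 and 294 in Ctrl (-0.07 ± 0.08). YARS2, the mitochondrial gene with the motif, was at 34.4, 34.9 and 34.8 CPM in Ctrl and 40.8, 37.3 and 43.9 in DBIC, a log2 fold change of 0.23 ± 0.07 (adjusted p = 0.0264, edgeR). Its call was lost after upper-quartile scaling (0.17, adjusted p = 0.0802, edgeR), without any 1 Ctrl library and without DBIC library 1 or 3 (adjusted p 0.0600 to 0.115, edgeR).

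**Figure D4:**
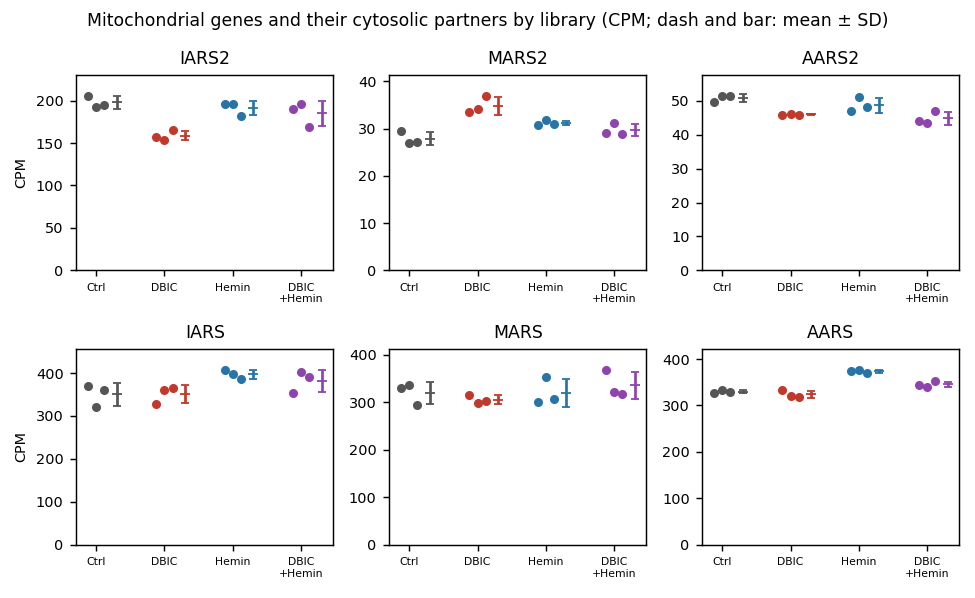
CPM in each library (points) of the mitochondrial genes IARS2, MARS2 and AARS2 (top) and their cytosolic partners IARS, MARS and AARS (bottom), with the mean and SD of the group beside them. IARS2 is lowest in the 3 DBIC libraries, MARS2 is highest there and AARS2 is lower there than in Ctrl, whereas the groups of each partner overlap between Ctrl and DBIC.

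DBIC+Hemin against DBIC asked what hemin does in cells that also receive the compound. Of the 20 cytosolic genes, 10 rose and 0 fell (edgeR, and 0 fell at an unadjusted p under 0.05 and by DESeq2), where 13.5% of tested genes rose and 18.4% fell. Within the level range of the cytosolic members, 25.9% of genes rose. The 10 were SARS, FARSB, KARS, NARS, EPRS, VARS, GARS, LARS, AARS and YARS, with log2 fold changes from 0.07 for YARS to 0.20 for SARS, and the median of the class was 0.12. It was 0.18 after upper-quartile scaling, where 16 of 20 rose and where the median of all genes moved up by 0.06.

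KARS, VARS and FARSB, the cytosolic genes that were lower with DBIC, were higher when hemin was added. Both comparisons use the same DBIC libraries, so that genes chosen for low values there are favoured to rise in the second, and the values are given side by side as a description. The same holds for IARS2, MARS2 and AIMP2, described further on, and for the interaction. KARS was at 325, 324 and 335 CPM in DBIC+Hemin, which lies above the DBIC libraries (0.19 ± 0.02, adjusted p = 9.77e-05, edgeR) and above Ctrl in each library. Against Ctrl, however, KARS did not pass (0.06 ± 0.02, adjusted p = 0.131, edgeR). VARS was at 324, 330 and 334 CPM, a difference from DBIC of 0.17 ± 0.02 (adjusted p = 0.000163, edgeR) and overlapping Ctrl. SARS was at 265, 266 and 263 CPM with both agents, 0.20 ± 0.02 above DBIC (adjusted p = 9.78e-05, edgeR). The LARS call (0.09 ± 0.03, adjusted p = 0.0182, edgeR) was lost without DBIC library 2 (adjusted p = 0.0619, edgeR) or DBIC+Hemin library 2 (adjusted p = 0.0676, edgeR), and with only the groups compared (adjusted p = 0.0598, edgeR). CARS (-0.07 ± 0.05) and TARS (0.06 ± 0.03), which were higher with DBIC than in Ctrl, did not pass.

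Of the mitochondrial genes, IARS2 and CARS2 rose and MARS2 fell when hemin was added to DBIC, with a median of 0.04. Within their level range 14.5% of tested genes rose and 23.8% fell, so that these counts are not above the background. IARS2 was at 190, 196 and 169 CPM with both agents, above DBIC by 0.22 ± 0.06 (adjusted p = 0.0117, edgeR). MARS2 was at 29.2, 31.2 and 28.9 CPM, lower than DBIC by -0.23 ± 0.05 (adjusted p = 0.00826, edgeR).

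The DBIC+Hemin libraries of IARS2 and MARS2 thus overlapped Ctrl. CARS2, for cysteine, rose by 0.11 ± 0.04 (adjusted p = 0.0494, edgeR). Its call held in 2 of the 12 fits that left out 1 library, without Hemin library 2 and without Hemin library 3, and was lost in the other 10 (adjusted p 0.0510 to 0.147, edgeR). It was also lost with no filter, with only the groups compared and with the replicate block (adjusted p 0.0514 to 0.0657, edgeR). AIMP2, the scaffold protein at the core of the complex, rose by 0.16 ± 0.04 (adjusted p = 0.0111, edgeR).

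**Figure D5:**
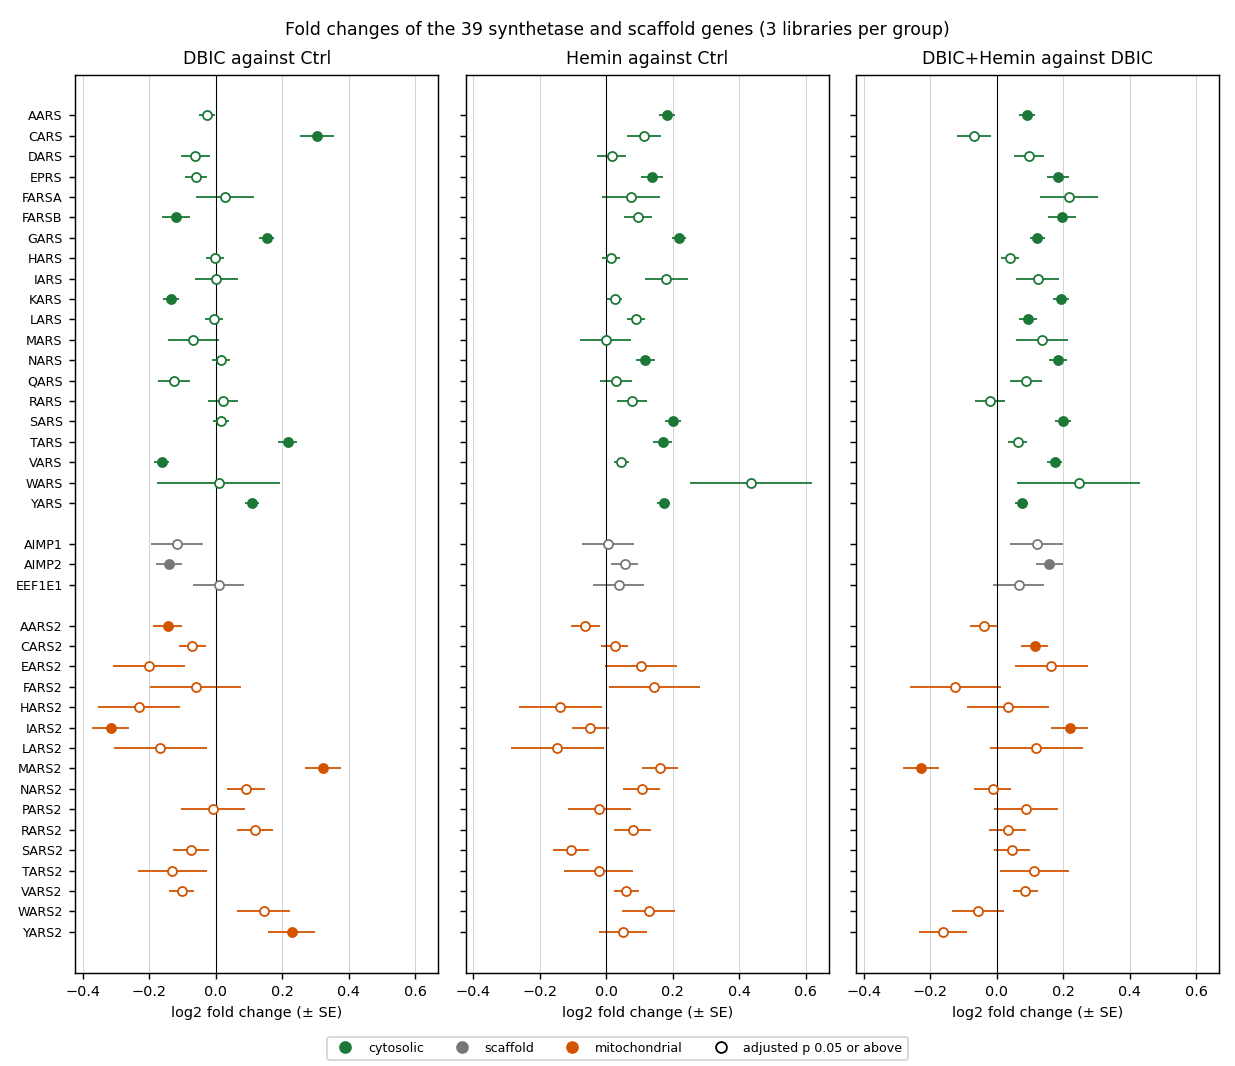
Log2 fold change with its SE of all 39 genes in DBIC against Ctrl (left), Hemin against Ctrl (middle) and DBIC+Hemin against DBIC (right), where filled points passed an adjusted p of 0.05. In the middle panel the 7 filled points are all cytosolic and right of 0, and IARS2 is leftmost in the left panel at -0.32.

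With both agents against Ctrl, 8 cytosolic genes rose and 0 fell (edgeR, and 0 fell at an unadjusted p under 0.05 and by DESeq2), and the median was 0.11, where 5.66% of tested genes rose and 6.74% fell, and 9.91% rose within the level range of the cytosolic members. They were TARS (0.28 ± 0.03), GARS (0.28 ± 0.02), CARS (0.24 ± 0.05), SARS (0.21 ± 0.02), NARS (0.20 ± 0.03), YARS (0.18 ± 0.02), EPRS (0.12 ± 0.03) and LARS (0.09 ± 0.03), all of them on the ATF4-linked list. GARS had its highest mean here, at 492, 489 and 500 CPM, and TARS was at 374, 381 and 377. Every DBIC+Hemin library of both genes exceeded every library of the other 3 groups, but GARS did not pass against Hemin (0.06 ± 0.02, adjusted p = 0.166, edgeR), nor TARS against DBIC (0.06 ± 0.03, adjusted p = 0.122, edgeR). AARS, at 345, 340 and 352 CPM, had a log2 difference from Ctrl of 0.07 ± 0.02 and did not pass (adjusted p = 0.102, edgeR). The EPRS call (adjusted p = 0.0313, edgeR) was lost without Ctrl library 2 or 3 or DBIC+Hemin library 1 or 2 (adjusted p 0.0992 to 0.112, edgeR), with library totals only (0.0902) and with only the groups compared (0.0939). The LARS call (adjusted p = 0.0485, edgeR) held in 1 of the 12 fits that left out 1 library, the one without DBIC library 2, with adjusted p of 0.0561 to 0.157 in the other 11, and was lost with library totals only, no filter, only the groups compared and the replicate block (0.0698 to 0.160). Of the mitochondrial genes, 0 rose (edgeR; 1 at an unadjusted p under 0.05 and 0 by DESeq2) and AARS2 fell, at 44.1, 43.5 and 46.9 CPM (-0.18 ± 0.04, adjusted p = 0.0178, edgeR). This AARS2 call was lost without Ctrl library 2 or 3 or DBIC+Hemin library 1 or 2 (adjusted p 0.0605 to 0.0650, edgeR) and with only the groups compared (0.0564).

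DBIC+Hemin against Hemin asked what the compound does in the presence of hemin, and few members passed. Of the cytosolic genes, TARS rose (0.11 ± 0.03, adjusted p = 0.0443, edgeR) and AARS fell (-0.11 ± 0.02, adjusted p = 0.0157, edgeR), where 3.71% of tested genes rose and 3.09% fell. The AARS libraries did not overlap, at 374, 377 and 371 CPM with hemin and 345, 340 and 352 with both. Its call was lost without Hemin library 1 or 2 or DBIC+Hemin library 1 or 2 (adjusted p 0.0549 to 0.0627, edgeR) and with only the groups compared (0.0523). The TARS call held in 1 of the 12 fits that left out 1 library, the one without Hemin library 1, with adjusted p of 0.0523 to 0.151 in the other 11, and was lost with upper-quartile scaling, library totals only, no filter, only the groups compared and the replicate block (0.0580 to 0.131). Of the mitochondrial and scaffold genes 0 passed by edgeR or DESeq2 (2 mitochondrial genes were lower at an unadjusted p under 0.05). The cytosolic median was 0.01 and was -0.01 when libraries were scaled by their totals only.

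Whether the effect of DBIC differed with and without hemin was tested as an interaction, the log2 fold change of DBIC+Hemin against Hemin minus that of DBIC against Ctrl. Of the 39 members, 3 had a positive interaction (KARS, VARS and IARS2) and 2 a negative one (YARS and MARS2), where 6.4% of tested genes were positive and 10.2% negative. For MARS2 the DBIC effect was 0.32 without and -0.07 with hemin (an interaction of -0.39 ± 0.08, adjusted p = 0.00562, edgeR). KARS had -0.13 and 0.04 (0.17 ± 0.03, adjusted p = 0.00517, edgeR). VARS had -0.16 and -0.03 (0.13 ± 0.03, adjusted p = 0.0183, edgeR). In these 3 genes the DBIC effect was nearer 0 in the presence of hemin.

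IARS2 (0.27 ± 0.08, adjusted p = 0.0411, edgeR) and YARS (-0.10 ± 0.03, adjusted p = 0.0365, edgeR) were less firm. The IARS2 interaction held without DBIC library 3 or DBIC+Hemin library 3 and was lost without any other library (adjusted p 0.0542 to 0.0937, edgeR) and with the replicate block (0.0555). The YARS interaction held without Ctrl library 2 or DBIC+Hemin library 3 and was lost without any other (adjusted p 0.0577 to 0.0934, edgeR), and it was -0.04 after upper-quartile scaling (adjusted p = 0.352, edgeR) and was lost with no filter (0.0638) and with the replicate block (0.0684). GARS (-0.10 ± 0.03, adjusted p = 0.0580, edgeR), TARS (-0.11 ± 0.04, adjusted p = 0.102, edgeR) and CARS (-0.18 ± 0.07, adjusted p = 0.113, edgeR) did not pass the interaction.

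The 11 genes of the multi-tRNA synthetase complex (EPRS, IARS, LARS, MARS, QARS, KARS, RARS, DARS, AIMP1, AIMP2 and EEF1E1) had 1 member higher with hemin, EPRS, whose call is among those lost above, and a median of 0.04, beside 1.47% higher over all tested genes. With DBIC, 0 rose (edgeR, and 0 at an unadjusted p under 0.05 and by DESeq2) and KARS and AIMP2 fell, with a median of -0.06, beside 20% higher and 17.2% lower over all tested genes, so that 2 of 11 lower is near the background. When hemin was added to DBIC, 4 rose (EPRS, KARS, LARS and AIMP2) and 0 fell (edgeR, unadjusted p under 0.05 and DESeq2). Over all tested genes 13.5% rose and 18.4% fell in that comparison, which uses the same DBIC libraries. AIMP2 (chr7:6009245-6023834, plus strand) was at 66.5, 69.9 and 66.9 CPM in Ctrl and 61.5, 63.0 and 59.9 in DBIC, with no overlap (-0.14 ± 0.04, adjusted p = 0.0169, edgeR). Its call was lost without Ctrl library 2 (adjusted p = 0.0656, edgeR) or DBIC library 3 (adjusted p = 0.0545, edgeR). AIMP1 was at 45.2, 45.0 and 54.2 CPM in Ctrl and 40.6, 44.9 and 47.7 in DBIC, and EEF1E1 was at 21.9, 23.3 and 24.6 against 23.9, 21.3 and 25.01. Both overlapped and did not pass in any comparison.

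Other genes of translation give the surroundings of the hemin comparison. Of 11 other genes of tRNA charging, 6 cytosolic elongation factors and 11 genes of mitochondrial translation, 0 passed with hemin in each list by edgeR, with medians of 0.05, 0.00 and 0.07. At an unadjusted p under 0.05 these were 2, 1 and 2 genes, and DESeq2 called 1 gene, in the first list. Of 11 ATF4-linked genes of stress and amino-acid supply, 6 rose with hemin (ATF4, ASNS, SESN2, PSAT1, SLC7A11 and SLC3A2) and 0 fell, with a median of 0.23, beside 1.47% higher and 2.59% lower over all tested genes. ASNS, asparagine synthetase, rose by 0.34 ± 0.04 and ATF4 itself by 0.14 ± 0.03. With DBIC, 6 of the 11 rose and 1 fell, and the median was 0.67, beside 0.01 for the ATF4-linked synthetases, where 20% of all tested genes rose and 17.2% fell. SESN2, a stress sensor for amino acids, rose by 2.25 ± 0.06 with DBIC and by 0.76 ± 0.06 with hemin. When hemin was added to DBIC, 4 of the 11 rose and 5 fell, among them DDIT3 (-2.35 ± 0.27), and 8 of the 13 ATF4-linked synthetases rose and 0 fell, where 13.5% of all tested genes rose and 18.4% fell, and 25.9% rose within the level range of the cytosolic members. The difference between these lists was not tested.

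Of the 39 members, 11 overlap another gene of the table, and the use of strand in the counting is not given in the sources used here. MARS overlaps DDIT3 on the opposite strand for 982 bases at chr12:57516588-57517569, and DDIT3 rose by 3.27 on the log2 scale with DBIC. HARS and HARS2 overlap by 599 bases on opposite strands at chr5:140691426-140692024, and YARS overlaps S100PBP. AIMP2 overlaps EIF2AK1, the gene of a heme-regulated kinase, for 1591 bases on the opposite strand, at mean levels of 67.05 CPM for AIMP2 and 143 for EIF2AK1. Genes that did not pass the filter on low counts overlap AARS2 for 13673 bases (AL353588.1, opposite strand), SARS2 for 15493 (AC011455.3, same strand) and EEF1E1 for 29171 (EEF1E1-BLOC1S5, same strand). The others are WARS, EARS2 and AIMP1. Reads of these stretches may be split or lost between the genes, and their part in the values of these 11 members was not tested.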

How the data were processed

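RNA-seq reads of 12 A375 libraries were trimmed, aligned and counted by the authors with Trim Galore, Subread and featureCounts on hg38, as named in the submitters' processing notes, without versions, annotation or strand setting in the sources used here. The authors deposited unnormalized read counts per gene, TPM, in which they scaled counts by length and to 1 total per library, and FPKM, which was not used. All columns were mapped to a sample (0 left over). Groups came from the labels. Here, counts were filtered with filterByExpr (14287 of 20263 genes kept), scaled by TMM and tested with edgeR 4.0.16 in R 4.3.3 by robust quasi-likelihood fits over all 4 groups (8 residual degrees of freedom), with Benjamini-Hochberg adjustment over all tested genes. CPM was computed from the same counts. The scripts were tested on simulated data. The smallest library held 37951275 counts, and the errors given are those of the spread between libraries.

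Of the genes that met the rule, 1 is not reported here, although it stayed in the fits. The members and lists were chosen with earlier results of these data known. No member reached the size of 0.5 (absolute log2 fold change) that the rule for named genes required, so that members past an adjusted p of 0.05, with their partners, GARS, KARS and the scaffold genes, were described, chosen after their values were seen. Alternatives were DESeq2 1.42.0, upper-quartile scaling, library totals only, no filter, at least 10 counts in every library, fits of only the groups compared, a replicate block, leaving out GARS and KARS, and leaving out each library. Gene positions are those that the authors deposited with the counts, and Python 3.11.15 was used to search promoters.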

Additional observations from a re-analysis of the deposited data

Results flagged for a closer look

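Whether DBIC acted differently with and without hemin was tested for every gene (edgeR's interaction term), and 5 of the 39 members described passed, where 16.6% of all tested genes did, so that this count is not above the background. The difference between the DBIC effect with hemin and that without it was 0.27 for IARS2 (adjusted p = 0.0411, edgeR), 0.17 for KARS (adjusted p = 0.00517, edgeR) and 0.13 for VARS (adjusted p = 0.0183, edgeR), all on the log2 scale. It was -0.39 for MARS2 (adjusted p = 0.00562, edgeR) and -0.10 for YARS (adjusted p = 0.0365, edgeR). In all 5 genes the DBIC effect passed the test without hemin and did not pass it with hemin. The interaction contains both effects, so that genes chosen by it are favoured to show this, and it is given as a description. The causes were not tested.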

How the results depend on the processing

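Of 49 calls of members, 33 held under every other setting and 0 changed direction. The largest shifts came with upper-quartile scaling, which moved the median of all genes by -0.06 in DBIC against Ctrl, 0.06 in DBIC+Hemin against DBIC and 0.05 in the interaction, and the share of calls that were higher from 53.8% to 39.95%, from 42.4% to 59.2% and from 38.5% to 55.4%. With library totals only, that share went from 45.6% to 34.4% in DBIC+Hemin against Ctrl and from 54.6% to 42.3% in DBIC+Hemin against Hemin. The causes were not tested.

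For DBIC against Ctrl, upper-quartile scaling gave 7 cytosolic genes lower (3 before), 1 mitochondrial gene higher (2 before), 4 lower (2 before), and medians of -0.061 (cytosolic) and -0.13 (mitochondrial). With library totals the cytosolic median was -0.022. For Hemin against Ctrl, DESeq2 called 881 genes (580 with edgeR). For DBIC+Hemin against DBIC, upper-quartile scaling gave 16 cytosolic genes higher (10 before) and medians of 0.18 and 0.10, the mitochondrial genes higher went from 2 to 1 with no filter, only the groups compared and the replicate block, and the cytosolic median was 0.14 with only the groups compared and 0.11 without GARS and KARS. For DBIC+Hemin against Ctrl, 0 mitochondrial genes were lower with only the groups compared (1 before), and the cytosolic median was 0.083 with library totals. For DBIC+Hemin against Hemin, the 1 cytosolic gene higher became 0 with upper-quartile scaling, library totals, no filter, only the groups compared and the replicate block, and the 1 lower became 0 with only the groups compared, which called 569 genes (971 before). Its cytosolic median was -0.010 with library totals. In the interaction, 1 cytosolic gene was higher without GARS and KARS (2 before). The 1 cytosolic gene lower became 0 with upper-quartile scaling, no filter and the replicate block and 2 with library totals. Upper-quartile scaling gave medians of 0.068 (cytosolic) and 0.096 (mitochondrial).

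The labels number the libraries 1 to 3 in each group, and whether the numbers pair them is not known. Correlations of deviations between same-numbered libraries were -0.05 to 0.08, with 0 of 18 pairs over 0.1. Between libraries of other numbers they were -0.07 to 0.08. Still, 8 of 12 libraries correlated best with their own number, so that these values do not settle the pairing. With the replicate block, calls fell from 580 to 408 in Hemin against Ctrl (5 of the 7 cytosolic genes stayed past the threshold) and from 5310 to 5084 in DBIC against Ctrl, and the interaction had 0 mitochondrial genes higher (1 before).

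Leaving out 1 library at a time, DBIC against Ctrl had 1 to 2 mitochondrial genes higher, 1 to 4 lower, 0 to 1 scaffold gene called and medians of -0.020 to 0.00025 (cytosolic) and -0.093 to -0.046 (mitochondrial). Hemin against Ctrl had 272 to 623 genes called and a mitochondrial median of 0.00086 to 0.057. DBIC+Hemin against DBIC had 1 to 2 mitochondrial genes higher, 1 to 2 lower and medians of 0.11 to 0.14 and 0.0062 to 0.067. DBIC+Hemin against Ctrl had 0 to 1 mitochondrial gene lower and medians of 0.092 to 0.11 and -0.022 to 0.023. DBIC+Hemin against Hemin had 0 to 1 cytosolic gene higher, 0 to 1 lower, 612 to 934 genes called and medians of -0.0032 to 0.018 and -0.057 to -0.0079. The interaction had 0 to 2 cytosolic genes lower, 0 to 1 mitochondrial gene higher and medians of 0.010 to 0.032 and 0.019 to 0.062.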
